A study of Mus musculus with 22 samples.

Results

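The genes described here are 40 type I interferon response genes, taken by name as a group of known targets and parts of this pathway, of 23420 genes in the count table. All 40 were in the table, and all 40 were among the 14458 genes that passed the filter on low counts. They were measured by RNA-seq of ribosomal RNA-depleted total RNA in inguinal white adipose tissue (IWAT) of wildtype C57Bl/6 female mice, which were fed chow (lean) or a high fat diet (HFD, obese) for 16 weeks. Each mouse received E0771 cells, a breast cancer line derived from a C57Bl/6 mouse, with Matrigel in the left pad (tumor-associated IWAT), and PBS with Matrigel but no cells in the right pad (control IWAT). Tissue was taken 2 weeks later, which gave 5 lean control, 5 lean tumor-associated, 6 obese control and 6 obese tumor-associated libraries. The control pad therefore came from a mouse that carried a tumor on the other side, and no mouse without a tumor is among the samples used here. The study's methods state that the inguinal lymph node and the adipose tissue bordering the tumor were removed. E0771 cells share the strain of the host, so that transcripts of cancer cells and of host cells cannot be told apart by sequence.

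Type I interferons are secreted proteins that cells release on sensing foreign or misplaced nucleic acid, and that act on a receptor made of IFNAR1 and IFNAR2. The receptor's kinases JAK1 and TYK2 activate the complex ISGF3, which holds STAT2 and IRF9, and this complex binds the interferon-stimulated response element (ISRE) in the promoters of its target genes. The products of these genes sense viral RNA and DNA, degrade or block the translation of RNA, and modify proteins with the ubiquitin-like ISG15. In adipose tissue the response can arise in adipocytes and in the cells between them, and in bulk tissue fewer cells of a type and less RNA per cell cannot be told apart.

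The libraries held between 5759775 and 8598108 counts assigned to genes. Markers of adipocytes, the labelled tissue, were abundant in all 22 libraries, with a summed level from 1720 to 22200 CPM (counts scaled to a common library size with TMM factors). Cells other than adipocytes also contributed. The summed level of 4 B cell markers was 432 and 400.0 CPM in the control pads of obese mice 1 and 3 and 101 CPM in the tumor-associated pad of obese mouse 3, against 1.53 to 48.5 CPM in the other libraries. T cell markers were also highest in the control pads of obese mice 1 and 3, at 244 CPM in each. The tumor-associated pads of obese mice 4 and 0 had the lowest adipocyte marker sums of their group (1720 and 2900 CPM) and the highest sums of 5 proliferation markers (1550 and 1170 CPM). The titles of 3 libraries, the control pads of obese mice 1 and 3 and the tumor-associated pad of obese mouse 4, carry an extra "-2" whose meaning the labels do not give. In the deposited counts the column names of all 22 libraries carry it. Whether the 3 libraries with it in their titles were handled apart cannot be told from the labels.

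The promoter letters that the pathway is known for were looked for first. RefSeq promoters (GRCm38.p6, 250 bases before to 50 after the start) were found for 30 of the 40 genes. The core of the ISRE, written as GAAANNGAAA on either strand, occurred in 14 of these 30 genes (46.7%), against 3.99% of the 27025 genes with a promoter in the table, and 3.44% of all 32851 promoters of the same length. The 14 genes were Isg15, Ifit1, Ifit3, Oas1a, Oas1g, Oas3, Rsad2, Stat2, Bst2, Trim30a, Ddx58, Ifih1, Eif2ak2 and Ifitm3. No promoter was found for Parp9, Mx1, Mx2, Dhx58, Rtp4, Usp18, Zbp1, Oas2, Parp14 and Oas1b. The median log2 fold change of tumor-associated over control IWAT was 1.49 in lean and 1.52 in obese mice for the 14 genes with the ISRE letters, 1.06 and 1.08 for the 16 genes whose promoter lacked them, and 1.56 and 1.82 for the 10 genes without a promoter. A match of letters is a description of the window and was not tested as a binding site.

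The 250 bases before the start of Isg15 and Ifit1, the members of the ISG15 system and the IFIT family with the largest log2 fold change in both diets, are shown to give the setting of the match. Bases are 5′ to 3′ on the gene's own strand in lower case, and capitals mark the ISRE letters, with overlapping matches joined. In Isg15 the capitals begin 78 bases before the start and hold several overlapping copies, and in Ifit1 there are 2 separate matches.
Isg15, chr4:156200819-156201068, minus strand: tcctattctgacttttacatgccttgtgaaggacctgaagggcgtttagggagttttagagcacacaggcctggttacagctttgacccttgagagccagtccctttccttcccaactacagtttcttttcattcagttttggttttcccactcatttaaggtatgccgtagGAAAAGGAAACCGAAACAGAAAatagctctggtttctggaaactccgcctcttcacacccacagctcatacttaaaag
Ifit1, chr19:34640639-34640888, plus strand: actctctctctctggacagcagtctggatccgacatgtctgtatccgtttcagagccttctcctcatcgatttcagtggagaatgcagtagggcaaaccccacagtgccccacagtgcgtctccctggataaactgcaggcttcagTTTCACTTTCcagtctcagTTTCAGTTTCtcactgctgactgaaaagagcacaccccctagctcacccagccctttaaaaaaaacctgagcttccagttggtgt

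A match that lies before the start is shown for each of 8 other members with up to 20 bases on either side, to compare the letters between genes. Ifit3 holds 2 matches before its start, and the one nearer to the start is shown. Oas1a and Oas1g, neighbouring paralogs on chromosome 5, had the same capital letters. The capitals start 20 and 18 bases before their starts, 75 bases before that of Oas3, 122 bases before that of Ifit3 and 222 bases before that of Stat2. For Oas1a, Ifit3, Stat2 and Bst2 the bases after the RefSeq start were not found in a GENCODE transcript of the gene. Distances for these genes depend on the annotation.
Oas1a, chr5:120907526-120907565, minus strand: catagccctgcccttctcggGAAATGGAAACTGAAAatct
Oas1g, chr5:120887614-120887651, minus strand: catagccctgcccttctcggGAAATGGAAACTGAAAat
Oas3, chr5:120777705-120777754, minus strand: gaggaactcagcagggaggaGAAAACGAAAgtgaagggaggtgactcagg
Ifit3, chr19:34583387-34583436, plus strand: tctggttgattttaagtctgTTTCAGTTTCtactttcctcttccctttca
Stat2, chr10:128270256-128270305, plus strand: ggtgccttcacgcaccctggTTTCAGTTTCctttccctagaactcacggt
Rsad2, chr12:26456543-26456592, minus strand: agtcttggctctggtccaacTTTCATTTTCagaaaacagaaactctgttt
Bst2, chr8:71537567-71537622, minus strand: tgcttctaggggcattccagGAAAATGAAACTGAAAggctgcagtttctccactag
Trim30a, chr7:104465200-104465249, minus strand: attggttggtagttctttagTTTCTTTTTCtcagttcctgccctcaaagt

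The first question was whether these genes differed between the tumor-associated and the control pad. In lean mice, 39 of the 40 genes were higher in tumor-associated IWAT (edgeR's quasi-likelihood test, Benjamini-Hochberg adjusted p under 0.05) and 0 were lower, where 3.27% of all genes tested were called higher and 0.913% lower. In obese mice, 39 of 40 were higher and 0 lower, where 26.8% of all genes were called higher and 27.7% lower, so that a call in obese mice marked a gene off less than in lean mice. The median log2 fold change of the 40 genes was 1.39 in lean and 1.46 in obese mice, against 0.01 and -0.02 over all genes. The gene that was not called in lean mice was Rsad2 (adjusted p = 0.102) and in obese mice Sp100 (adjusted p = 0.134). Every tumor-associated library lay above every control library for 39 genes in lean mice, where 5.33% of all genes did so, and for 34 genes in obese mice, where 9.95% did. Within mice, 39 genes were higher in the tumor-associated pad of all 5 lean mice and 37 in that of all 6 obese mice. The exceptions were Mx1 in lean mice, and Parp9, Lgals3bp and Sp100 in obese mice. In a single mouse, 49.0 to 54.6% of all genes tested were higher in lean and 46.8 to 51.8% in obese mice. The share of all genes that were higher in every mouse was not counted.

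**Figure D1:**
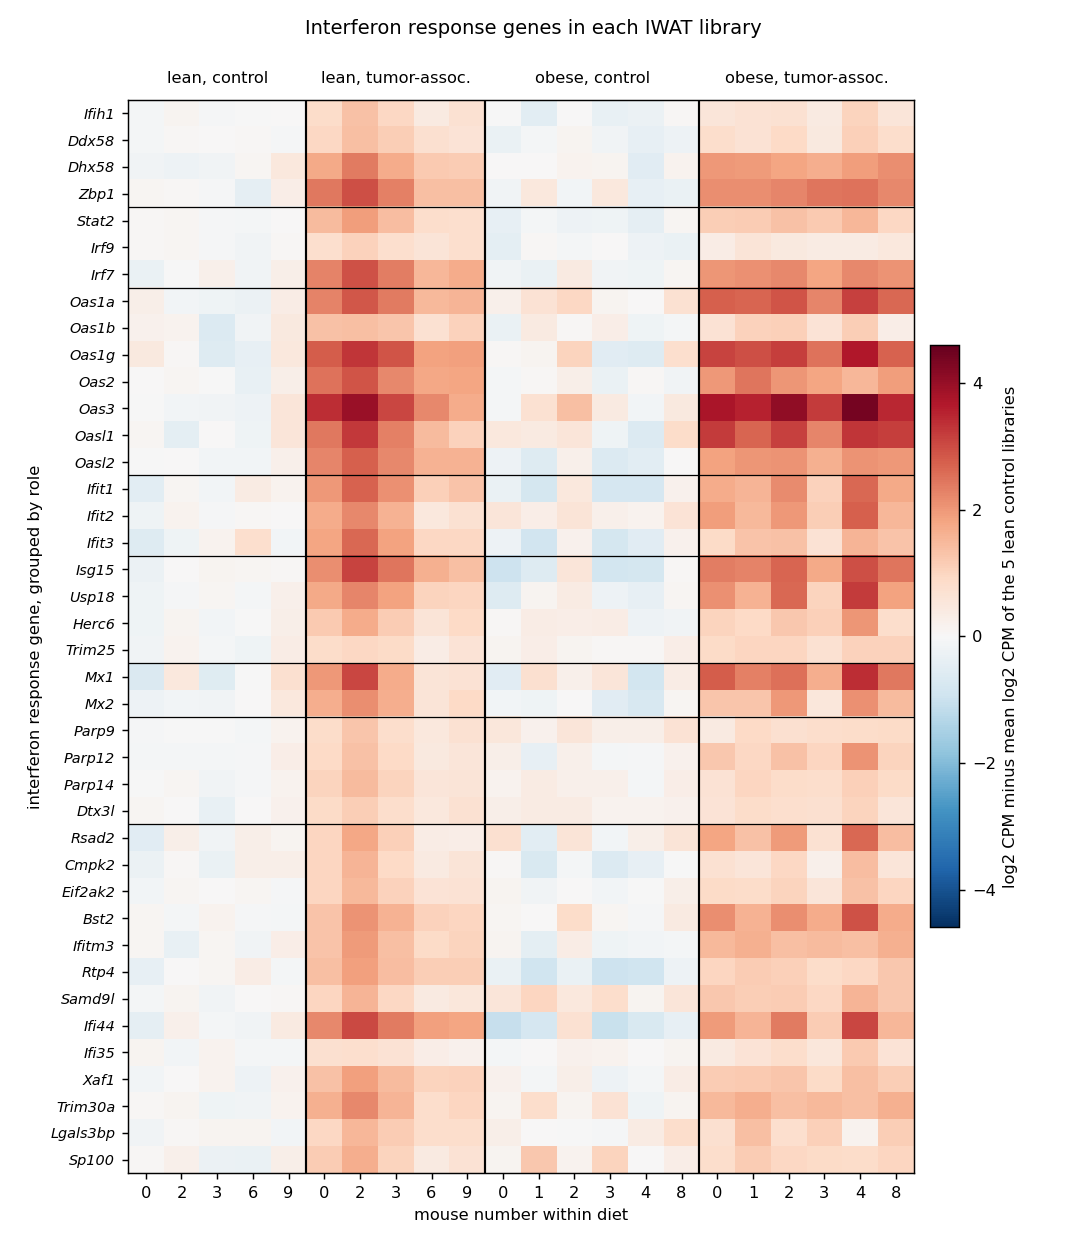
Level of each of the 40 genes (rows, grouped by role) in each of the 22 libraries (columns, numbered by mouse), as log2 CPM minus the mean log2 CPM of the 5 lean control libraries. The tumor-associated columns are red for nearly all rows, and the column of lean mouse 2, which had the highest lean tumor-associated value for all 40 genes, is the darkest of its group.

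The size of the change varied among the genes by role. The 2-5A synthetases and their relatives had the highest group medians (log2 fold change 2.26 in both diets), and the PARP group the lowest (0.85 in lean and 0.60 in obese mice). A change above 2 on the log2 scale was seen for 10 genes in lean and 13 in obese mice. The 40 genes held 12 of the 100 largest log2 fold changes of all genes in lean mice and 1 of the 100 largest in obese mice.

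**Figure D2:**
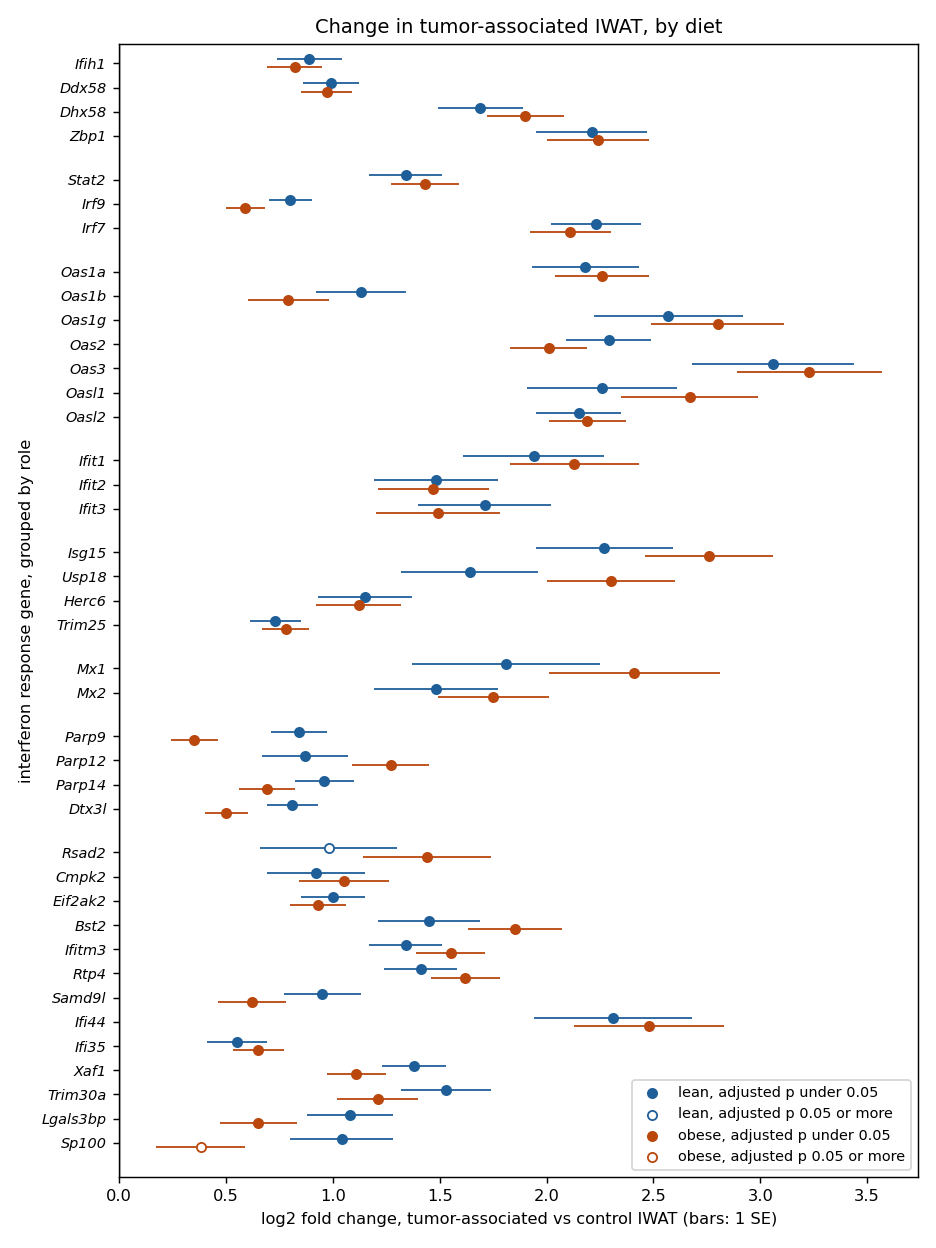
Log2 fold change of tumor-associated over control IWAT for each gene (points, with bars of 1 SE) in lean (blue) and obese (orange) mice, grouped by role. Open points mark the genes not called, Rsad2 in lean and Sp100 in obese mice, and all points lie to the right of 0, from 0.35 (Parp9, obese) to 3.23 (Oas3, obese).

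Among the sensors of viral nucleic acid, all 4 rose in both diets. Zbp1, a receptor for left-handed double-stranded nucleic acid, changed most. Its level in the lean control pads of mice 0, 2, 3, 6 and 9 was 17.2, 16.8, 15.5, 12.1 and 19.8 CPM, and in their tumor-associated pads 87.2, 126, 79.9, 41.7 and 42.3 CPM. The obese control pads had 12.3 to 22.6 CPM with a median of 14.6, and the tumor-associated pads 69.9 to 89.7 CPM with a median of 74.7. The groups did not overlap in either diet, and lean mice 6 and 9 had the lowest tumor-associated values. The log2 fold change was 2.21 ± 0.26 (SE, adjusted p = 7.05e-05) in lean and 2.24 ± 0.24 (adjusted p = 1.45e-06) in obese mice.

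Ifih1, which encodes the long double-stranded RNA sensor MDA5, changed least of the sensors. It had 86.2, 101, 89.6, 89.9 and 93.9 CPM in the lean control pads and 166, 236, 178, 121 and 150 CPM in the tumor-associated pads of the same mice. In obese mice it had 66.1 to 95.2 CPM (median 83.2) in control and 121 to 188 CPM (median 141) in tumor-associated pads. The groups were again separate, at a smaller distance than for Zbp1, with log2 fold changes of 0.89 ± 0.15 (SE) in lean and 0.82 ± 0.13 in obese mice (adjusted p = 0.0015 and 8.35e-05). Ddx58, the gene of the RNA sensor RIG-I, rose by 0.99 and 0.97 on the log2 scale, and Dhx58, the gene of their relative LGP2, by 1.69 and 1.90.

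The transcription factors of the pathway rose as well, and differed in size. Irf7, which drives interferon alpha genes, had 29.4, 35.5, 42.3, 32.0 and 43.9 CPM in the lean control and 174, 277, 184, 105 and 118 CPM in the tumor-associated pads of mice 0, 2, 3, 6 and 9. With HFD it had 29.0 to 48.0 CPM (median 32.4) in control and 127 to 167 CPM (median 155) in tumor-associated pads, with no overlap in either diet. Its log2 fold change was 2.23 ± 0.21 (SE, adjusted p = 3.16e-06) in lean and 2.11 ± 0.19 (adjusted p = 3.96e-07) in obese mice. Irf9, the DNA-binding part of ISGF3, changed less and varied less between mice. It had 59.7, 61.6, 55.1, 51.4 and 59.2 CPM in the lean control pads and 98.1, 119, 96.9, 86.6 and 98.9 CPM in the tumor-associated pads, and its log2 fold change was 0.80 ± 0.10 (SE, adjusted p = 7.1e-05). The obese mice had 42.4 to 59.6 CPM (median 51.6) and 71.7 to 85.6 CPM (median 77.1), a log2 fold change of 0.59 ± 0.09 (adjusted p = 3.9e-05). Its tumor-associated libraries varied least of the 40 genes, with a coefficient of variation of 11.6% in lean and 6.31% in obese mice, against medians of 34% and 20.7%. Stat2 rose by 1.34 and 1.43 on the log2 scale. Exons of Irf7 overlap Phrf1 on the other strand and those of Irf9 overlap Rnf31 on the same strand, so reads there can belong to either gene. Reads that HTSeq set aside as ambiguous between genes were counted to neither.

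The 2-5A synthetases make a short nucleotide that activates the ribonuclease RNase L, and Oasl1 and Oasl2 are relatives in the same family. All 7 rose in both diets. Oas3, on chromosome 5 from 120753098 to 120777661 (GRCm38), changed most of the 40 genes. It had 5.23, 4.9, 4.75, 4.58 and 7.8 CPM in the lean control pads of mice 0, 2, 3, 6 and 9, and 56.3, 83.9, 45.2, 24.8 and 17.5 CPM in their tumor-associated pads. In obese mice it had 4.91 to 14.0 CPM (median 7.21) in control and 49.9 to 112 CPM (median 67.0) in tumor-associated pads. The groups did not overlap, and the lean tumor-associated values spread more widely than the obese ones for their size. The log2 fold change was 3.06 ± 0.38 (SE, adjusted p = 8.58e-05) in lean and 3.23 ± 0.34 (adjusted p = 1.45e-06) in obese mice.

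Oas1b, whose C57BL/6 allele carries a premature stop codon, changed least of the family. It had 8.24, 8.05, 4.75, 6.51 and 9.83 CPM in the lean control and 18.5, 19.1, 17.4, 11.7 and 15.1 CPM in the tumor-associated pads. With HFD it had 5.88 to 9.62 CPM (median 7.22) and 9.0 to 15.8 CPM (median 13.3), and these groups overlapped. Its log2 fold change was 1.13 ± 0.21 (SE, adjusted p = 0.00299) in lean and 0.79 ± 0.19 (adjusted p = 0.00165) in obese mice. The other members rose by 2.15 to 2.57 on the log2 scale in lean mice (Oasl2 and Oas1g) and by 2.01 to 2.80 in obese mice (Oas2 and Oas1g). Oas1a and Oas1g share 57.6% and 45.7% of their 50-base stretches with other annotated genes, mainly with each other, so the split of reads between them is uncertain.

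The IFIT proteins bind viral RNA and slow its translation, and all 3 rose in both diets. Ifit1, which binds RNA with an immature cap, changed most. It had 21, 31.0, 26.8, 37.7 and 32.7 CPM in the lean control pads and 116, 194, 127, 63.1 and 73.2 CPM in the tumor-associated pads of mice 0, 2, 3, 6 and 9. The obese mice had 16.9 to 40.7 CPM (median 20.5) in control and 60.3 to 183 CPM (median 96.0) in tumor-associated pads. There was no overlap, and the log2 fold change was 1.94 ± 0.33 (SE, adjusted p = 0.00165) in lean and 2.13 ± 0.30 (adjusted p = 2.68e-05) in obese mice.

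Ifit2 changed least, with 29.3, 37.6, 32.5, 34.5 and 34.2 CPM in the lean control and 110, 156, 102, 46.7 and 54.2 CPM in the tumor-associated pads. Obese mice had 37.9 to 51.6 CPM (median 45.5) and 72.9 to 223 CPM (median 113). The groups were separate, and lean mice 6 and 9 lay close to the control values. The log2 fold change was 1.48 ± 0.29 (SE, adjusted p = 0.00505) in lean and 1.47 ± 0.26 (adjusted p = 0.000164) in obese mice. Ifit3 rose by 1.71 and 1.49 on the log2 scale, and 51.2% of its 50-base stretches are shared with Ifit3b, which had no row of its own in the table.

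ISG15 is a ubiquitin-like protein that is attached to other proteins by ligases such as HERC6 in the mouse and TRIM25, and removed by USP18, which also damps the receptor's signal. All 4 genes rose in both diets. Isg15 had 6.5, 7.87, 8.42, 8.27 and 8.14 CPM in the lean control pads of mice 0, 2, 3, 6 and 9, and 34.2, 66.7, 43.2, 24.3 and 20.4 CPM in their tumor-associated pads. In obese mice it had 4.08 to 11.5 CPM (median 4.81) in control and 26.4 to 60.6 CPM (median 41.5) in tumor-associated pads. The groups lay far apart in both diets, with a log2 fold change of 2.27 ± 0.32 (SE, adjusted p = 0.000343) in lean and 2.76 ± 0.30 (adjusted p = 1.7e-06) in obese mice.

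Trim25 changed least of this group, with 91.3, 115, 97.1, 89.2 and 130 CPM in the lean control and 185, 199, 191, 132 and 159 CPM in the tumor-associated pads. Obese mice had 107 to 129 CPM (median 114) and 166 to 218 CPM (median 207). The lowest lean tumor-associated value, 132 CPM, lay just above the highest control value, and the log2 fold change was 0.73 ± 0.12 (SE, adjusted p = 0.00137) in lean and 0.78 ± 0.11 (adjusted p = 2.23e-05) in obese mice. Usp18 rose by 1.64 and 2.30 on the log2 scale and Herc6 by 1.15 and 1.12.

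The Mx genes encode GTPases that trap viral nucleoproteins, and the Mx1 allele of C57BL/6 mice lacks coding exons and gives no functional protein. Mx1 had 6.39, 14.0, 6.89, 10 and 17 CPM in the lean control pads and 40.1, 84.7, 33, 15.4 and 16.2 CPM in the tumor-associated pads of mice 0, 2, 3, 6 and 9. In mouse 9 the tumor-associated pad was lower than its own control pad, and the lean groups overlapped. With HFD it had 5.68 to 16.9 CPM (median 12.4) in control and 32.2 to 106 CPM (median 56.2) in tumor-associated pads, with no overlap. Its log2 fold change was 1.81 ± 0.44 (SE, adjusted p = 0.0224) in lean and 2.41 ± 0.40 (adjusted p = 9.41e-05) in obese mice. The lean call was lost with the mouse as a block (1.64, adjusted p = 0.0826), and without the tumor-associated library of mouse 0 or 2 or the control library of mouse 0, 3 or 6 (1.26 to 1.79, adjusted p from 0.0559 to 0.129). Mx2, which GENCODE annotates as a polymorphic pseudogene, rose by 1.48 and 1.75 on the log2 scale.

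The PARP group holds Parp9, Parp12 and Parp14, which belong to the ADP-ribosyltransferase family, and Dtx3l, a ubiquitin ligase that pairs with PARP9. All 4 rose in both diets, with the smallest changes of the roles. Parp12 changed most in obese mice and by the mean over the diets, while Parp14 had the larger log2 fold change in lean mice (0.96, against 0.69 in obese mice). Parp12 had 54.3, 54.6, 54.8, 56.0 and 71.2 CPM in the lean control and 109, 148, 109, 79.3 and 85.1 CPM in the tumor-associated pads. Obese mice had 44.5 to 69.5 CPM (median 61.7) and 113 to 241 CPM (median 127), where the highest value was that of mouse 4. The groups did not overlap, and the log2 fold change was 0.87 ± 0.20 (SE, adjusted p = 0.0167) in lean and 1.27 ± 0.18 (adjusted p = 2.76e-05) in obese mice. The lean call was lost without the tumor-associated library of mouse 0 or 2 or the control library of mouse 3 or 6 (0.70 to 0.85, adjusted p from 0.0504 to 0.0987).

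Parp9 had 82.0, 83.6, 83.9, 78.5 and 93.9 CPM in the lean control and 151, 202, 148, 119 and 136 CPM in the tumor-associated pads. Obese mice had 96.7 to 133 CPM (median 112) in control and 111 to 158 CPM (median 150) in tumor-associated pads. The lean groups were separate and the obese groups overlapped. The log2 fold change was 0.84 ± 0.13 (SE, adjusted p = 0.000577) in lean and 0.35 ± 0.11 (adjusted p = 0.0139) in obese mice, and the obese call was lost without both pads of obese mouse 1, 3 or 4 (0.27 to 0.30, adjusted p from 0.0554 to 0.0717), without the 3 libraries highest in B cell markers (0.24, adjusted p = 0.123) and without the 3 libraries titled with an extra "-2" (0.22, adjusted p = 0.15). Dtx3l had 110, 105, 81.6, 104 and 118 CPM in the lean control and 189, 227, 181, 144 and 166 CPM in the tumor-associated pads, and 116 to 135 CPM (median 121) and 153 to 211 CPM (median 174) in obese mice. It did not overlap in either diet and rose by 0.81 ± 0.12 (SE, adjusted p = 0.000385) in lean and 0.50 ± 0.10 (adjusted p = 0.000611) in obese mice. Parp9 and Dtx3l overlap in their exons on opposite strands of chromosome 16, and the strand setting of the counting is not given in the sources used here. Whether reads of the overlap were counted to the right gene, to the other gene or to neither therefore cannot be told.

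Of the 13 other effectors, 12 rose in each diet. Ifi44, a cytoplasmic protein of the response, changed most, with 10.2, 16.1, 12.9, 12.3 and 18.1 CPM in the lean control and 62.6, 113, 70.9, 50.1 and 47.9 CPM in the tumor-associated pads. Obese mice had 6.53 to 22.4 CPM (median 8.24) and 30.8 to 116 CPM (median 46.5). The groups did not overlap, with log2 fold changes of 2.31 ± 0.37 (SE, adjusted p = 0.00114) in lean and 2.48 ± 0.35 (adjusted p = 2.21e-05) in obese mice.

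Ifi35 changed least in lean mice and by the mean over the diets, while Sp100 (0.38) and Samd9l (0.62) had smaller log2 fold changes than Ifi35 (0.65) in obese mice. Ifi35 had 41.7, 35.3, 42.6, 36.1 and 35.4 CPM in the lean control and 63.8, 64.8, 60.5, 47.1 and 43.7 CPM in the tumor-associated pads. The obese mice had 36.2 to 43.9 CPM (median 39.9) and 51.0 to 88.6 CPM (median 59.1). The groups were separate, and the log2 fold change was 0.55 ± 0.14 (SE, adjusted p = 0.0252) in lean and 0.65 ± 0.12 (adjusted p = 0.000301) in obese mice. The lean call was lost without the tumor-associated library of mouse 0, 2 or 3 or the control library of mouse 2, 6 or 9 (0.48 to 0.53, adjusted p from 0.0516 to 0.126).

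Rsad2 encodes viperin, which makes a chain-terminating nucleotide, and lies beside Cmpk2, a nucleotide kinase. Rsad2 had 27.2, 46.5, 34.3, 46.6 and 42.2 CPM in the lean control and 76.6, 132, 83.1, 48.5 and 47.7 CPM in the tumor-associated pads. Every lean mouse was higher in the tumor-associated pad, but mice 6 and 9 by little, and the fit gave 0.98 ± 0.32 (SE, adjusted p = 0.102). It was called with DESeq2 (adjusted p = 0.0451), in a fit of the lean libraries alone (adjusted p = 0.047) and when the tumor-associated library of obese mouse 4, which enters the shared estimate of the spread, was left out (adjusted p = 0.0489). In obese mice it had 27.7 to 65.0 CPM (median 52.3) in control and 63.3 to 243 CPM (median 119) in tumor-associated pads, with overlap, and rose by 1.44 ± 0.30 (SE, adjusted p = 0.000566). Cmpk2 rose by 0.92 and 1.05 on the log2 scale, and its lean call was lost without the tumor-associated library of mouse 0 or 2 or the control library of mouse 0, 2 or 3.

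Sp100 encodes a protein of nuclear bodies. It had 72.3, 82.7, 57.9, 56.5 and 85.3 CPM in the lean control and 159, 221, 143, 94.0 and 112 CPM in the tumor-associated pads, with a log2 fold change of 1.04 ± 0.24 (SE, adjusted p = 0.0163). That call was lost without the tumor-associated library of mouse 0 or 2 or the control library of mouse 3 or 6 (0.83 to 0.99, adjusted p from 0.0505 to 0.0817). With HFD it had 70.0 to 167 CPM (median 82.1) in control and 122 to 156 CPM (median 132) in tumor-associated pads, a change of 0.38 ± 0.21 (adjusted p = 0.134). The overlap came from the control pads of mice 1 and 3, at 167 and 141 CPM, which were also the control libraries with B cell marker sums of 432 and 400.0 CPM, and the other 4 control pads had 70.0 to 86.8 CPM. The rise in obese mice was called with the mouse as a block (0.46, adjusted p = 0.0337), without the control library of mouse 1 (0.56, adjusted p = 0.022) and without the 3 libraries highest in B cell markers (0.79, adjusted p = 0.00253). Near copies of Sp100 share 5.92% of its 50-base stretches.

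Lgals3bp, a secreted glycoprotein that binds galectins, had 167, 193, 206, 202 and 171 CPM in the lean control and 364, 538, 421, 331 and 330 CPM in the tumor-associated pads, a log2 fold change of 1.08 ± 0.20 (SE, adjusted p = 0.003). The obese mice had 182 to 328 CPM (median 208) and 209 to 483 CPM (median 359), with overlap, and rose by 0.65 ± 0.18 (adjusted p = 0.0047). Mouse 4 had its lowest obese tumor-associated value, below that mouse's own control pad. Without the 3 libraries highest in B cell markers the obese change was 0.48 (adjusted p = 0.0588). Rtp4, a chaperone of membrane receptors, had 24.5, 32.5, 34.1, 41.0 and 30.5 CPM in the lean control and 84.7, 120, 85.2, 70.4 and 70.1 CPM in the tumor-associated pads, and 16.7 to 27.2 CPM (median 21.4) and 57.1 to 75.7 CPM (median 66.4) in obese mice. It did not overlap in either diet and rose by 1.41 ± 0.17 (SE, adjusted p = 7.62e-05) in lean and 1.62 ± 0.16 (adjusted p = 8.85e-07) in obese mice. The other effectors rose by 0.92 to 1.53 on the log2 scale in lean mice (Cmpk2 and Trim30a) and by 0.62 to 1.85 in obese mice (Samd9l and Bst2). Among them Ifitm3 blocks the entry of viruses through endosomes, Bst2 tethers virus particles to the cell surface, and Eif2ak2 encodes the kinase PKR, which stops translation on double-stranded RNA.

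**Figure D3:**
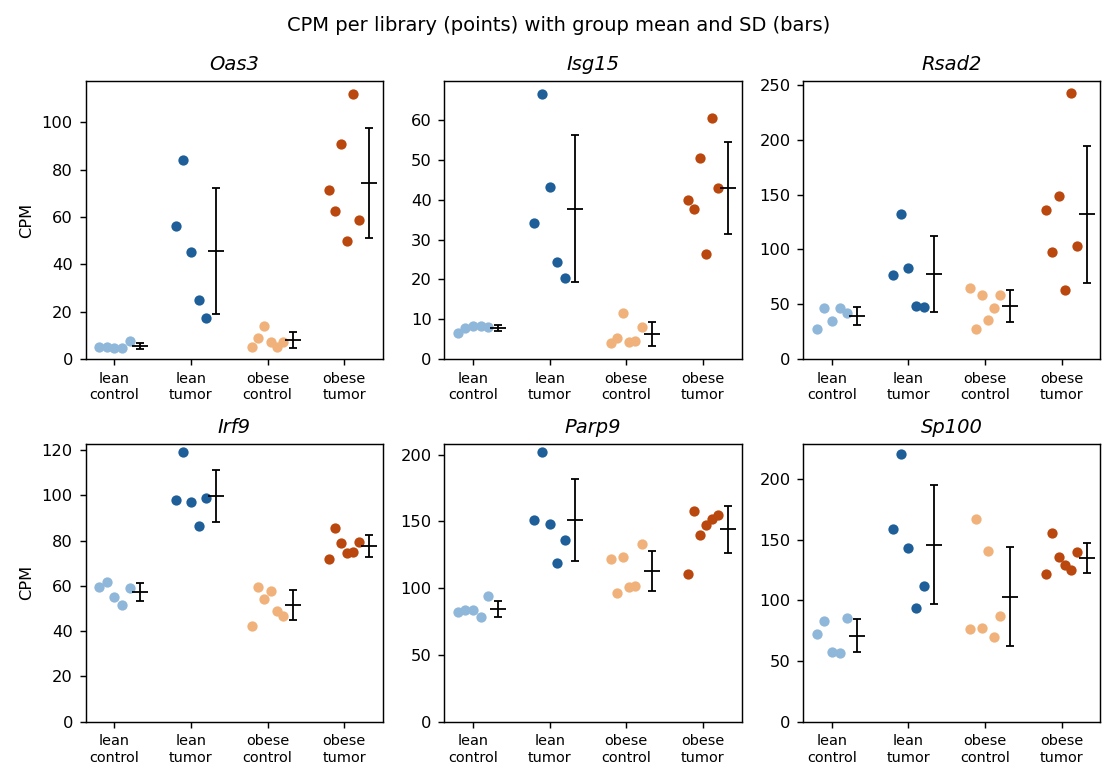
CPM of 6 of the genes in each library (points, in order of mouse number) with the group mean and SD (bars), on axes that start at 0. Oas3 and Isg15 separate control from tumor-associated IWAT in both diets, Rsad2 has its highest value in obese mouse 4 (243 CPM), Irf9 is lower in the obese than in the lean tumor-associated pads, and the obese control values of Sp100 fall into 2 high and 4 low points.

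The interferons themselves were at the limit of detection. Of 16 type I interferon genes in the table, none passed the filter on low counts, and all 16 together had 5 counts in the lean control, 6 in the lean tumor-associated, 4 in the obese control and 13 in the obese tumor-associated libraries. Ifnb1, the gene of interferon beta, had 0 counts in all 5 lean tumor-associated libraries, which allows up to 3 of their 34440260 counts, and 0 in all 5 lean control libraries. It had 1 count each in the control pads of obese mice 2 and 4, and in tumor-associated IWAT 8 counts in obese mouse 2 and 3 counts in obese mouse 4, with 0 in the other 4. Ifng, the gene of interferon gamma, had 3, 6, 4 and 17 counts in the same order of groups. These limits cover counting error only. Reads that did not align uniquely were not counted to genes, and sequence shared among the interferon genes was not measured.

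The genes of the receptor and its kinases did not pass the test. Ifnar1 and Ifnar2 were not called, with log2 fold changes of 0.24 and 0.10 in lean mice (adjusted p = 0.291 and 0.873) and 0.21 and -0.20 in obese mice (adjusted p = 0.0755 and 0.172). Jak1, Jak2 and Tyk2 were not called either (adjusted p from 0.348 to 0.934), at 0.27 to 0.28 in lean and -0.06 to 0.03 in obese mice. Of the 8 other factors listed, which included Irf1, Irf5 and Socs1, none was called in lean mice, and 4 rose in obese mice. Of 12 sensors and adaptors that act upstream of interferon, 5 rose in lean mice (Tmem173, Tlr7, Tlr8, Myd88 and Ifi204) and 9 in obese mice. Tlr7, an endosomal receptor for single-stranded RNA, rose by 1.46 and 1.28 and Ifi204, a DNA sensor, by 1.36 and 1.64 on the log2 scale. Of 9 tested relatives of the members, Ifitm2, Parp11 and Trim30d rose in both diets. These counts stand beside shares of 3.27% in lean and 26.8% in obese mice for all genes called higher.

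A pair of related groups gave lower values by the same counts. Of 14 GTPases known for induction by interferon gamma, 5 rose in lean mice (Gbp3, Gbp7, Gbp9, Irgm1 and Irgm2) and 10 in obese mice, with medians of 0.84 and 0.79 on the log2 scale. Of 10 genes of MHC class I presentation, 0 were called in lean and 5 in obese mice, with medians of 0.47 and 0.37. Among all genes tested, 3.27% were called higher in lean and 26.8% in obese mice. No test of the difference between these groups and the 40 genes was made.

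The control pads of obese and lean mice differed little in these genes. Of the 40, 2 were higher and 1 was lower in obese mice, where 9.54% of all genes were called higher and 7.53% lower, and the median was 0.04 for the 40 genes and for all genes. Samd9l was higher by 0.61 ± 0.17 (SE, adjusted p = 0.019), with 119 to 144 CPM in the lean and 144 to 262 CPM in the obese control pads, where mice 1 and 3 had the 2 highest values, 262 and 233 CPM. Parp9 was higher by 0.42 ± 0.12 (adjusted p = 0.0212), with every obese control library above every lean one. Rtp4 was lower, with a log2 difference of -0.58 ± 0.17 (adjusted p = 0.0196), and the groups overlapped. Its 3 lowest values, 16.7 to 17.2 CPM, were those of obese mice 1, 3 and 4. Without the 3 libraries highest in B cell markers the calls of Samd9l and Rtp4 were lost. Of these 3 calls, those of Rtp4 and Parp9 were also lost without the lean control library of mouse 6, and that of Samd9l without the obese control library of mouse 1.

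In the tumor-associated pads, 3 genes were higher and 1 was lower in obese than in lean mice, where 24.7% of all genes were called higher and 22.4% lower, so the share of the 40 genes called was below that of all genes. Irf9 was lower by -0.36 ± 0.09 (SE, adjusted p = 0.0029) on the log2 scale, and its highest obese value, 85.6 CPM, lay below its lowest lean value, 86.6 CPM. This call was kept in each of the alternative fits. Bst2 was higher by 0.66 ± 0.23 (SE, adjusted p = 0.022), with 88.5, 149, 108, 75.6 and 70.7 CPM in the lean and 108 to 272 CPM (median 139) in the obese tumor-associated pads. Rsad2 was higher by 0.77 ± 0.31 (adjusted p = 0.046) and Oas1a by 0.55 ± 0.22 (adjusted p = 0.0486). These groups overlapped, and the calls depended on the fit as well as on single libraries. Oas1a was not called with upper-quartile normalization (0.45, adjusted p = 0.092), without a filter on low counts (0.56, adjusted p = 0.051) or with at least 10 counts in every library (0.49, adjusted p = 0.0658). Rsad2 was not called with upper-quartile normalization (0.66, adjusted p = 0.0729) or with at least 10 counts in every library (0.71, adjusted p = 0.0568). In a fit of the tumor-associated libraries alone, neither gene nor Bst2 was called (adjusted p = 0.101, 0.107 and 0.0749 for Oas1a, Rsad2 and Bst2). The calls of Oas1a and Rsad2 were also lost without some of the control libraries, which are not part of this comparison but share its fit. Without the tumor-associated library of obese mouse 4, none of the genes was called higher. Without that of lean mouse 2, which had the highest lean value for all 40 genes, 11 were called higher. Among them were Oas3, Oasl1, Ifit2, Dhx58, Mx1, Usp18, Parp12 and Samd9l. The share of all genes called higher in that fit is not given here, and with all libraries it was 24.7%.

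The change from control to tumor-associated IWAT was then compared between the diets. None of the 40 genes was called in the test of the difference (edgeR), where 2.58% of all genes were called with a larger and 2.34% with a smaller change in obese mice. An unadjusted p under 0.05 was seen for 1 of the 40 genes, against 4760 of the 14458 genes tested. DESeq2 called 1, Parp9. Approximate 95% intervals of the difference were made from the SE and a normal multiplier. Their half-width was 0.25 to 1.13 with a median of 0.54 on the log2 scale. Differences of that size were therefore not detectable for many of the genes. The intervals are somewhat narrower than the test allows. That of Sp100 ran from -1.28 to -0.03, while its unadjusted p was 0.0518 (edgeR). Among the 5 genes with the smallest p, all had a smaller change in obese mice. Parp9 differed by -0.49 ± 0.17 (SE, adjusted p = 0.0692, or 0.0452 with DESeq2), Sp100 by -0.66 ± 0.32 (adjusted p = 0.155), Dtx3l by -0.30 ± 0.16 (adjusted p = 0.178), Irf9 by -0.21 ± 0.13 (adjusted p = 0.255) and Lgals3bp by -0.43 ± 0.26 (adjusted p = 0.256). For Parp9 the obese control pads were higher than the lean ones while the tumor-associated pads had a difference of -0.07 ± 0.12. Over the 40 genes 22 differences were positive, with a median of 0.05 against -0.04 over all genes.

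The mice differed in how far the genes rose. The mean log2 CPM of the 40 genes was 4.96 to 5.26 in the lean control and 4.82 to 5.36 in the obese control pads. In lean tumor-associated pads it was 6.60, 7.14, 6.61, 5.98 and 6.04 in mice 0, 2, 3, 6 and 9, and in obese mice 6.25 to 6.97. The change within a mouse averaged 1.41 ± 0.53 (SD, n = 5) on the log2 scale in lean mice, from 0.78 in mouse 9 to 2.05 in mouse 2, and 1.5 ± 0.33 (SD, n = 6) in obese mice, from 1.26 in mouse 3 to 2.14 in mouse 4. Lean mouse 2 had the highest lean tumor-associated value for all 40 genes. Obese mouse 4 had the highest value of its group for 29 genes and the lowest for Oas2, Trim30a, Ifitm3 and Lgals3bp. Its value was over 2 times the median of the other 5 mice for Ifit2, Ifi44, Usp18, Rsad2, Bst2, Parp12 and Herc6, so the order of the obese mice depended on the gene, and that of the lean mice less so.

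**Figure D4:**
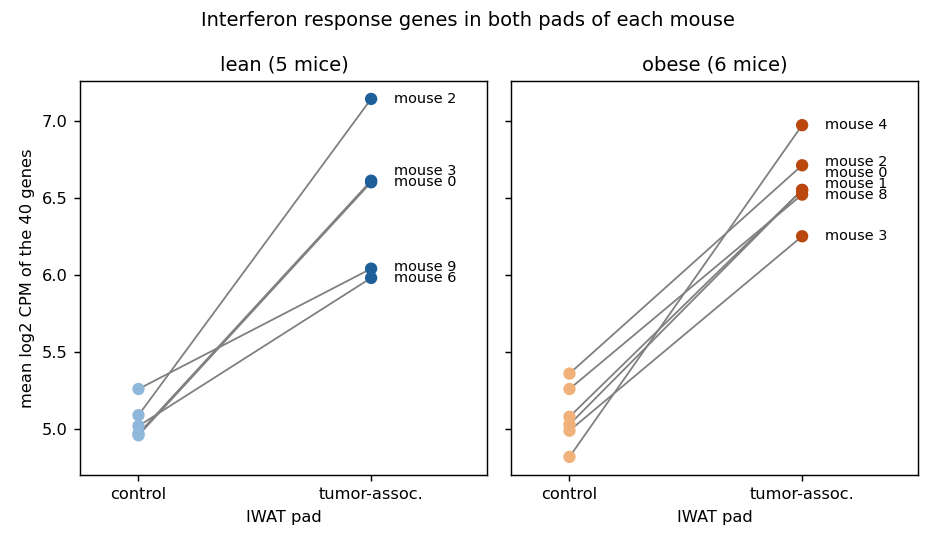
Mean log2 CPM of the 40 genes in the control and the tumor-associated pad of each mouse (lines join the pads of a mouse) for 5 lean and 6 obese mice. Every line goes up, from a narrow range in the control pads to 5.98 to 7.14 in lean and 6.25 to 6.97 in obese tumor-associated pads.

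Other cell types moved with the same comparison. Of 11 macrophage markers, 9 rose in lean and 10 in obese tumor-associated IWAT, with medians of 1.39 and 1.57 on the log2 scale, and none was at 0 in any group. In lean mice their summed level was 836 to 1700 CPM in control and 1840 to 3990 CPM in tumor-associated pads, and in obese mice 1280 to 1760 and 1900 to 5290 CPM. In lean tumor-associated pads the highest macrophage sum was that of mouse 2 and the lowest that of mouse 6, which also had the highest and lowest mean of the 40 genes. In obese tumor-associated pads mouse 4 had the lowest macrophage sum, 1900 CPM, and the highest mean of the 40 genes. That library also had the lowest sums of adipocyte, fibroblast and endothelial markers (1720, 1720 and 230 CPM). Of 5 fibroblast markers 2 rose in each diet and 1 was lower in obese mice, and of 4 endothelial markers none was called in lean and 4 were lower in obese mice. None of 6 T cell, 4 B cell and 1 neutrophil markers tested rose in either diet, and 1 B cell marker was lower in obese mice. T cell marker sums in obese control pads were 244 CPM in mice 1 and 3 and 6.44 to 10.4 CPM in the others. B cell marker sums in the same pads were 432 and 400.0 CPM in these mice and 1.72 to 9.3 CPM in the others. In obese tumor-associated pads the sums were 11.1 to 64.7 CPM for T cell and 2.03 to 101 CPM for B cell markers. Calls of these markers without the control pads of mice 1 and 3 are not given here. All 5 proliferation markers rose in obese and 0 in lean tumor-associated IWAT. All 8 adipocyte markers were lower in obese tumor-associated IWAT and none was called in lean mice. Of 6 markers of mammary epithelium and carcinoma, 0 were called in lean mice and 5 were lower in obese mice. Plasmacytoid dendritic cells, known as a source of interferon alpha, had low levels of a defining marker, Siglech, with group means of 3.46 CPM in control and 2.14 CPM in tumor-associated pads of lean mice and 6.53 and 2.67 CPM in those of obese mice. None of their 4 tested markers rose in either diet, and Tcf4 was lower in obese tumor-associated IWAT (log2 fold change -0.30, adjusted p = 0.00781). Among all genes tested, 3.27% were called higher and 0.913% lower in lean mice, and 26.8% and 27.7% in obese mice. The part of these cell types in the change of the 40 genes was not tested.

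**Figure D5:**
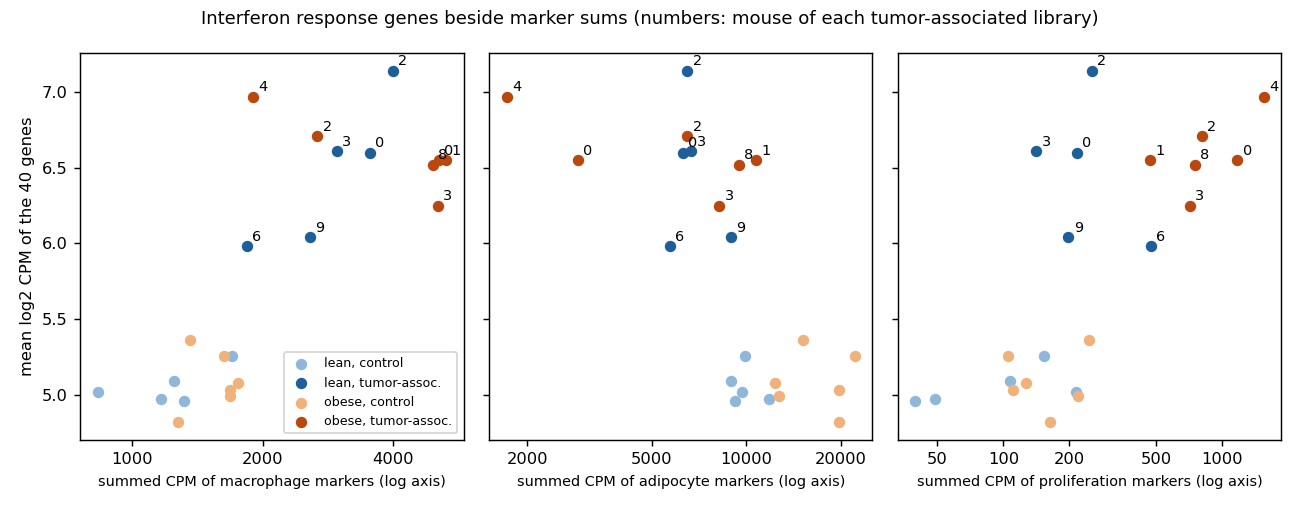
Mean log2 CPM of the 40 genes in each library against the summed CPM of macrophage, adipocyte and proliferation markers (log axes), with the mouse number beside each tumor-associated library. Lean mouse 2 has the highest macrophage sum of the lean libraries (3990 CPM), and obese mouse 4 has the lowest macrophage and adipocyte sums and the highest proliferation sum (1550 CPM) of the obese tumor-associated libraries.

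Per length, the most abundant of the 40 genes was Ifitm3 in each of the 4 groups, at 159 and 403 CPM per kilobase of merged exons in the control and tumor-associated pads of lean mice and 152 and 444 in those of obese mice. Lgals3bp (65.9, 139, 79.4 and 125 CPM per kilobase in the same order of groups) and Bst2 (39.9, 109, 47.7 and 172) came next. The least abundant was Oas3 in lean control, lean tumor-associated and obese control IWAT, at 0.771, 6.45 and 1.11 CPM per kilobase, and Oas1b in obese tumor-associated IWAT, at 6.55.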

How the data were processed

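The series holds RNA-seq of 22 libraries, 1 from each inguinal pad of 11 mice. The authors trimmed reads with prinseq, aligned them to mm10 with STAR (2.4.0f in the submitters' processing notes) and deposited raw counts per gene from HTSeq. The HTSeq version, the annotation and the strand setting are not given in the sources used here. Of the reads reported by HTSeq, 38.5 to 48.8% per library fell in no feature and 15.1 to 18.9% did not align uniquely, and these stayed out of library sizes. Reads counted to genes numbered 5759775 to 8598108 per library (median 6953881.5), which limits precision for genes of low level.

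Groups were taken from the labels. Counts as deposited were tested with edgeR 4.0.16 (R 4.3.3, limma 3.58.1; quasi-likelihood test, TMM factors, filterByExpr) in 1 fit of all 4 groups without a block, with Benjamini-Hochberg adjustment over 14458 genes and a threshold of 0.05. CPM are TMM-scaled, and log2 CPM has a prior count of 2. The code was tested on simulated data. Alternatives were DESeq2 1.42.0, other size factors, other filters on low counts (none, or 10 counts in every library), only the groups compared, each library or mouse left out, 3 libraries titled with an extra "-2" left out, and the mouse as a block. Same-numbered pads come from the same mouse. Their deviations from the group means correlated with a median r of 0.508 over 5 lean mice (over 0.1 in 5) and 0.168 over 6 obese mice (over 0.1 in 4).

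Values in every library are given for the genes of each role with the largest and the smallest mean change, the 5 with the smallest p for the difference between diets and any called against most calls of a comparison, and others are named where a count is 5 or fewer. The members, the lists of pathway genes and of cell markers (macrophage, plasmacytoid dendritic cell, T cell, B cell, neutrophil, adipocyte, fibroblast, endothelium, mammary epithelium and proliferation) and the rules were chosen with earlier results of these data known. Positions, lengths and shared 50-base stretches are from GENCODE M21 (GRCm38), and promoters from RefSeq (GRCm38.p6). Results for an item of the pathway lists are not reported here.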

Additional observations from a re-analysis of the deposited data

Results flagged for a closer look

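In 6 of the 76 sets of 5 or 6 libraries examined (19 genes in 4 groups), the highest or lowest library stood apart from the others of its group by more than Dixon's 95% limit, a limit that chance passes in about 1 in 20 sets. In lean control pads, Oas3 was highest in mouse 9 (7.8 CPM), Parp12 was highest in mouse 9 (71.2 CPM) and Isg15 was lowest in mouse 0 (6.5 CPM). In obese control pads, Ifi44 was highest in mouse 2 (22.4 CPM). In obese tumor-associated pads, Parp12 was highest in mouse 4 (241 CPM) and Parp9 was lowest in mouse 0 (111 CPM).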

How the results depend on the processing

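In tumor-associated against control IWAT, leaving out 1 library or 1 mouse at a time gave 30 to 40 of the 40 genes called in lean mice and 38 to 40 in obese mice. The lowest lean count came without both pads of lean mouse 2, which lost Ifit2, Ifit3, Mx1, Mx2, Usp18, Cmpk2, Parp12, Ifi35 and Sp100. With the mouse as a replicate block, 38 genes were called in lean mice (Mx1 was lost), 40 in obese mice (Sp100 was gained) and 0 in the difference between diets, and the block changed no other call. In the main fit, 3.27% of all genes were called higher and 0.913% lower in lean mice, and 26.8% and 27.7% in obese mice. For the difference between diets these shares were 2.58% and 2.34%. The shares of all genes in the alternative fits are not given here.

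For obese against lean control IWAT, where 3 genes were called, the left-out fits gave 0 to 3, with 0 without both pads of lean mouse 3 and 1 without both pads of lean mouse 0 or the control library of lean mouse 6. Leaving out the 3 libraries titled with an extra "-2" gave 1. For obese against lean tumor-associated IWAT, where 4 genes were called, the left-out fits gave 1 to 12, the fit of the groups compared alone gave 1, and the fit without the 3 libraries titled with "-2" gave 2. For the difference between diets, where 0 genes were called, the left-out fits gave 0 to 1 and DESeq2 and the fit without the "-2" libraries gave 1 each, Parp9. Some alternatives were chosen after seeing the data. Without the 3 libraries highest in B cell markers, 1 gene was called between the control pads and 7 between the tumor-associated pads, and without the 2 obese tumor-associated libraries lowest in adipocyte markers 1 gene was called between the tumor-associated pads. With all libraries, 9.54% of all genes were called higher and 7.53% lower between the control pads. Between the tumor-associated pads these shares were 24.7% and 22.4%. The shares in the other fits are not given here. The causes were not tested, and no named value changed direction.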
